A study of Saccharomyces cerevisiae with 12 samples.

Results

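The subject is the Ty retrotransposons of the budding yeast Saccharomyces cerevisiae, followed through the 45 rows of a gene count table that hold their gag-pol open reading frames. The 45 rows were taken by systematic name from a table of 7192 features, and they comprise 31 rows of the Ty1 family, 9 of Ty2, 2 of Ty3 and 3 of Ty4. RNA was sequenced from 6 samples incubated with a lectin of the clam Cyclina sinensis, a sugar-binding protein with specificity for N-acetylgalactosamine and mannose, and from 6 untreated control samples. Both groups were labelled wild-type, and cultures were shaken in the rich medium YPD at 30 °C until mid-logarithmic growth. The labels used here do not give the strain, the mating type, the lectin dose, the length of the incubation or a buffer for the controls. The study calls its replicates biological but does not say whether each was treated separately, so any p-value measures only the spread between these samples. Samples are named by group and by the number in their labels: lectin 2, 3, 4, 5, 6 and 8, and control 2, 3, 4, 6, 7 and 8.

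Ty elements are retrotransposons bounded by long terminal repeats, which copy themselves through an RNA that is packed into virus-like particles and reverse transcribed. The RNA encodes Gag, the particle protein, and a Gag-Pol fusion that carries the protease, integrase and reverse transcriptase and is made only when ribosomes shift frame near the end of gag. Ty1, Ty2 and Ty4 belong to the copia-like group, Ty3 to the gypsy-like group, and Ty1 and Ty3 integrate next to genes transcribed by RNA polymerase III. Ty1 RNA is among the more abundant polyadenylated RNAs of haploid yeast, and its transcription depends on mating type and on the Ste12 and Tec1 activators.

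The frameshift site is what joins gag to pol in these rows, so the 47 reference bases around it are shown for 1 row of each family, in the coding direction, with the 7-base slip site in capitals. They come from the RefSeq assembly R64, the build named in the submitters' processing notes, at chrII:222612-222658 for YBL005W-B of Ty1, chrIV:982732-982778 for YDR261W-B of Ty2, chrVII:708442-708488 for YGR109W-B of Ty3 and chrVIII:86972-87018 for YHL009W-B of Ty4, all on the plus strand.
YBL005W-B: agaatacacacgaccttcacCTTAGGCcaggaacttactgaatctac
YDR261W-B: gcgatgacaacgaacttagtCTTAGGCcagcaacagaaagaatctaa
YGR109W-B: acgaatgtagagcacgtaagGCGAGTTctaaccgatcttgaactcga
YHL009W-B: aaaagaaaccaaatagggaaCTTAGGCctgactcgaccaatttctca
The bases CTTAGGC lay within 30 bases of the annotated join of the reading frames in 29 of 29 Ty1 rows annotated in 2 parts, in 9 of 9 Ty2 rows and in 2 of 3 Ty4 rows. Both Ty3 rows held GCGAGTT there instead. The study strain may differ from this reference in which copies it carries and where.

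The rows of a family are close to identical where they align, and this limits what any single row can say. Over 465 pairs of Ty1 rows, the aligned bases were 91.7% to 99.98% identical, with a median of 97.2%. Ty2 rows were 98.3% to 100% identical and the Ty4 rows were 99.2% to 99.96% identical. The Ty3 pair was 99.0% identical over its best alignment, 3079 bases of frames of 4645 and 4498 bases. A read from such sequence can fit several copies, and how the authors' counting treated it is not given in the sources used here. The family sum is therefore the main quantity, and values of single rows are given as the table assigned the reads. A sum does not depend on how reads were divided among its rows, but it would lack any reads that were dropped. Of the 31 Ty1 rows, 30 lie in an element that the annotation names as Ty1. The remaining row, YLR035C-A, was placed by its best blastn match, YER160C.

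The 12 libraries held 17303313 to 21354011 counts, and 3 counts, taken as the floor of detection for counting error only, equalled 0.140 to 0.173 CPM (a count relative to its library's total). Ty gag-pol rows took 0.179% to 0.207% of the counts in lectin samples and 0.124% to 0.141% in control samples, so the shares did not overlap. The rows were picked with this contrast known, and what follows on lectin against control is a description. DESeq2 calls and p-values are printed within it, but they are not independent evidence for rows or lists chosen in this way. In RNA from a whole culture, more Ty RNA in each cell and more cells that make it cannot be told apart.

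The Ty1 sum was higher in the lectin samples, at a lowest value of 29626, a median of 31468 and a highest of 32882 normalized counts (counts divided by the size factor of the library), against 19279, 21066 and 21640 in the control samples. Every lectin sample lay above every control sample, and the gap between the groups was wider than the range within either. The log2 fold change, lectin over control, was 0.60 ± 0.040 (SE), or 1.52-fold, and 42 of 6207 features (0.677%) had a larger one when each family was entered as its sum. Ty1 is also the most numerous Ty family of the reference strain.

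The Ty2 sum had a lowest value of 3146, a median of 3226 and a highest of 3590 normalized counts in lectin samples, against 2806, 2883 and 3063 in control samples. Here too the groups did not overlap, but they lay close together, and the log2 fold change was 0.19 ± 0.043. The Ty3 sum was 766, 898 and 992 normalized counts at its lowest, median and highest in lectin samples and 652, 779 and 836 in control samples. The Ty3 groups overlapped, with a log2 fold change of 0.23 ± 0.075. All 3 Ty4 rows had 0 counts in each of the 12 libraries, below the floor of 0.140 to 0.173 CPM, so no fold can be given.

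The balance between the families differed between the groups as well. The ratio of Ty1 to Ty2 sums ran from 9.12 to 10.4 in lectin samples, with a median of 9.56, and from 6.68 to 7.55 in control samples, with a median of 7.30. The ratio of Ty1 to Ty3 was 31.1 to 42.9 in lectin samples and 24.1 to 30.3 in control samples. Neither of these ratios overlapped between groups, while the ratio of Ty2 to Ty3 did, at 3.20 to 4.12 in lectin samples and 3.38 to 4.43 in control samples. These ratios do not depend on the scaling of the libraries. They cover the listed rows only. A further Ty2 row outside the list, YOR343W-B, held 8817 counts, equal to 23.7% of the listed Ty2 count, and would lower the ratios of Ty1 to Ty2.

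On a level per length, CPM divided by the mean frame length in kilobases and summed over the rows, Ty1 stood at 332 ± 17.8 in lectin samples and 219 ± 11.9 in control samples (SD, n = 6 each). Ty2 stood at 33.6 ± 2.15 in lectin and 29.5 ± 1.17 in control samples, and Ty3 at 10.6 ± 0.880 in lectin and 9.08 ± 0.803 in control samples. The order Ty1, Ty2, Ty3, with Ty4 at 0, was the same in both groups. The Ty2 level leaves out YOR343W-B and would be higher with it. The mean frame was 5.15 kb for Ty1, 5.31 kb for Ty2 and 4.57 kb for Ty3, counted over the whole frame, gag included. How reads in gag or shared between copies were counted is not given, and it could affect the families unequally.

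**Figure D1:**
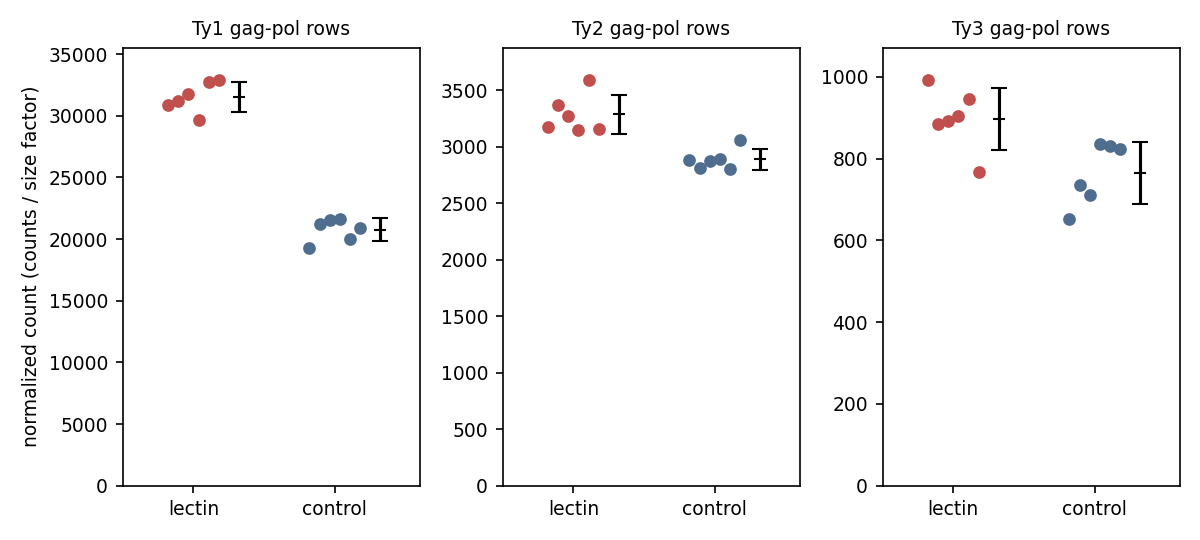
Normalized counts (vertical axes, from 0) of the summed Ty1, Ty2 and Ty3 gag-pol rows, 1 point per sample, with lectin samples left and control samples right. The bar beside each group is its mean ± SD (n = 6). The 6 lectin points of Ty1, from 29626 to 32882, stand clear of the control points, which end at 21640, while those of Ty3 overlap.

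The Ty1 counts were concentrated in few rows. YBL005W-B on chromosome II held 35.1% of all Ty1 gag-pol counts, YMR045C on chromosome XIII 28.3% and YBR012W-B, also on chromosome II, 15.5%. Together these 3 rows held 78.9%, and from 74.2% to 81.0% in single samples. At the other end, 7 Ty1 rows did not reach the 10 counts in 6 samples needed for a test, the fullest of them with 115 counts over all 12 libraries.

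YBL005W-B, at chrII:221330-226598 on the plus strand, had 10695, 10938 and 11634 normalized counts at its lowest, median and highest in lectin samples, against 6898, 7281 and 7710 in control samples. The groups did not overlap, and its log2 fold change was 0.61 ± 0.036. YMR045C, at chrXIII:357359-362627 on the minus strand, had 8200, 8735 and 9589 normalized counts in lectin samples and 5146, 6005 and 6449 in control samples. It did not overlap either, with a log2 fold change of 0.56 ± 0.059. YBR012W-B, with 4302, 4834 and 5068 in lectin samples and 3311, 3351 and 3409 in control samples, had the narrowest control range of the 3 and a log2 fold change of 0.52 ± 0.042.

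**Figure D2:**
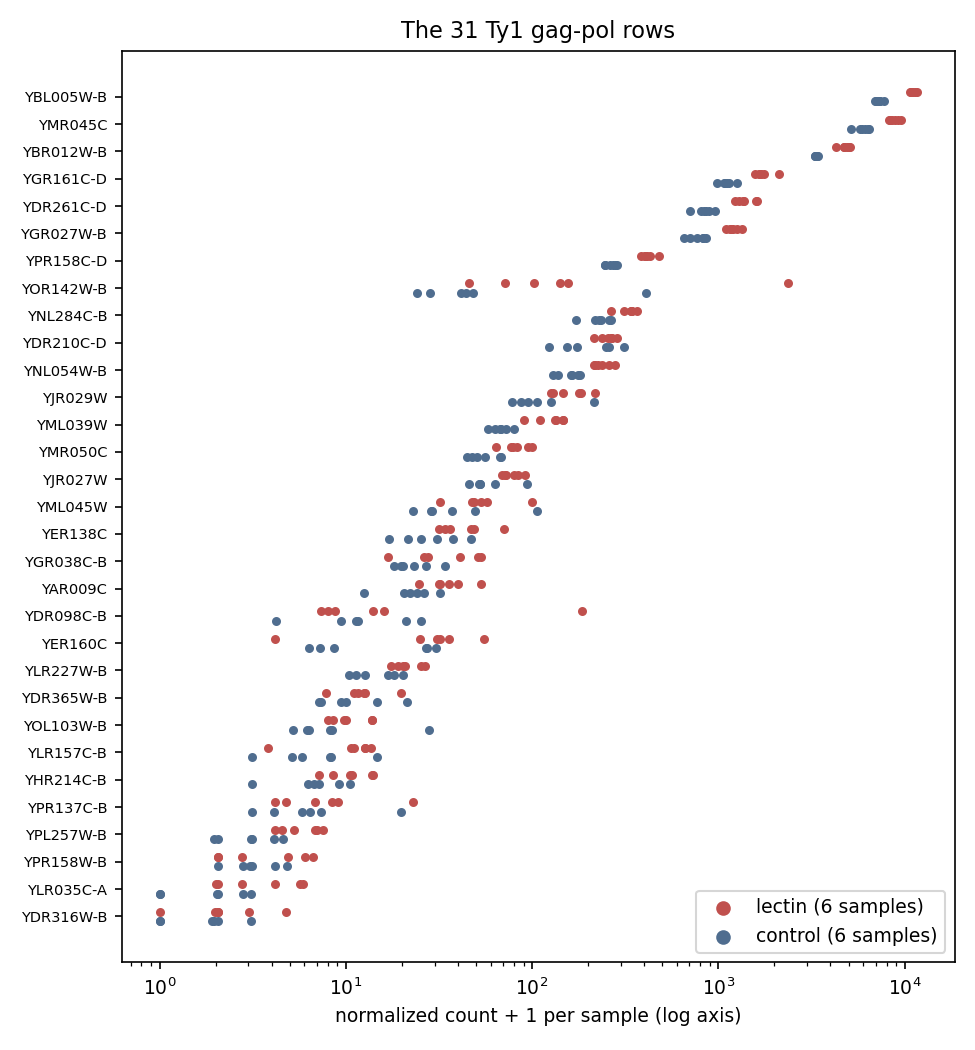
Normalized count + 1 in each sample (horizontal log axis) for the 31 Ty1 gag-pol rows, ordered by total count with the fullest at the top. The upper points of each row are the 6 lectin samples and the lower points the 6 control samples. The rows run from YBL005W-B at 6898 to 11634 down to YDR316W-B at 0 to 3.75, and YOR142W-B shows 1 lectin sample at 2374.

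Of the 45 rows, 33 had the 10 counts in 6 samples needed for a test, 24 of Ty1, 7 of Ty2 and 2 of Ty3. In the DESeq2 fit of the whole table, 17 of the 33 were higher in lectin samples at an adjusted p under 0.05, beside 15.4% of all 6237 features tested. None was lower, beside 16.1% of all features. No tested row had a log2 fold change below 0, so none was lower at an unadjusted p under 0.05 either, and edgeR and limma-voom also called none lower. A further 14 rows were not called, and DESeq2 gave YOR142W-B and YDR098C-B no adjusted p under its rule on samples of extreme influence (Cook's distance). None of the called rows reached an absolute log2 fold change of 1, the size that the study's design text asks for, which with an adjusted p under 0.05 was met by 0.257% of all features. These shares are not read as a result, because the rows were listed with this contrast in view.

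By family, 12 of the 24 tested Ty1 rows were called higher, 3 of the 7 Ty2 rows and both Ty3 rows. The median log2 fold change of the tested rows was 0.59 in Ty1, 0.19 in Ty2 and 0.23 in Ty3, beside 0.0017 over all tested features. In 10 of the 33, all of Ty1, every lectin sample lay above every control sample, beside 5.85% of all features. Counting the rows too low for a test as well, 41 of the 45 had a higher mean in lectin samples, 1 had a lower mean and 3 were at 0. The row with the lower mean was YFL002W-A of Ty2, with 1.95 to 7.44 normalized counts in lectin samples and 4.23 to 14.4 in control samples.

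**Figure D3:**
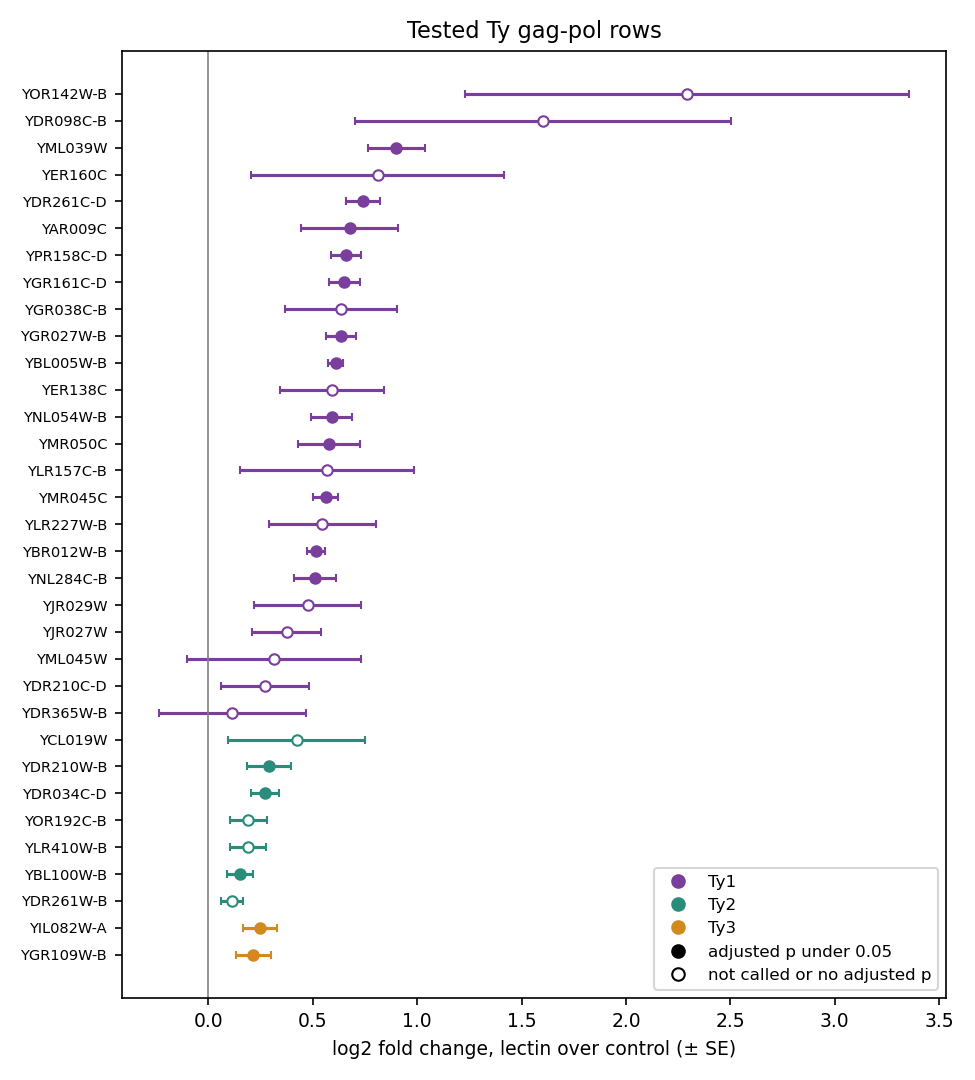
Log2 fold change, lectin over control, with its SE (horizontal axis) for the 33 tested gag-pol rows, grouped by family. Filled points had an adjusted p under 0.05 in DESeq2 over the whole table and open points did not or had none. The filled Ty1 points lie between 0.51 and 0.90 and all Ty2 and Ty3 points below 0.43.

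Below the 3 fullest rows, 6 called Ty1 rows with 2383 to 17237 counts over the 12 libraries had log2 fold changes of 0.51 to 0.74. The uncalled rows in that range, YOR142W-B at 2.29 and YDR210C-D at 0.27, were uneven over the samples. YGR161C-D had 1573 to 2110 normalized counts in lectin samples and 983 to 1263 in control samples, with a log2 fold change of 0.65 ± 0.074. YGR027W-B had 1098 to 1331 in lectin samples and 650 to 855 in control samples, with 0.63 ± 0.071. YDR261C-D had 1228 to 1620 in lectin samples and 707 to 961 in control samples, with 0.74 ± 0.082. In all 3 rows the groups stood apart, as they did in YPR158C-D at 0.66 ± 0.072, YNL054W-B at 0.59 ± 0.098 and YNL284C-B at 0.51 ± 0.10. The largest log2 fold change among called rows was 0.90 ± 0.14 in YML039W, with 89.9, 132 and 146 normalized counts in lectin samples and 57.1, 66.6 and 78.9 in control samples. It too was separated between groups, at a level far below that of the leading copies. The remaining called Ty1 rows, YAR009C and YMR050C, overlapped between groups.

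The smallest fold among tested Ty1 rows was in YDR365W-B, with 6.82, 11.05 and 18.8 normalized counts in lectin samples and 6.20, 8.72 and 20.2 in control samples. The groups overlapped fully, its log2 fold change of 0.12 ± 0.35 was smaller than its error, and it became -0.082 without lectin 6. The other uncalled Ty1 rows had log2 fold changes from 0.27 to 0.81 with errors of 0.16 to 0.61, and counts of 98 to 2807 over the 12 libraries.

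The largest fold of all stood in a row that single libraries in both groups moved far. YOR142W-B, at chrXV:595112-600380, had 2374 normalized counts in lectin 8, against 44.6 to 155 in the other lectin samples, and 408 in control 3, against 23.1 to 47.0 in the other control samples. Its medians were 121 in lectin samples and 42.1 in control samples. Its log2 fold change of 2.29 ± 1.06 became 0.057 without lectin 8, with control 3 still included, and 3.73 without control 3. No fit left out both libraries. The neighbouring genes did not show this: LSC1, which encodes a succinyl-CoA ligase subunit, ranged from 5707 to 6293 normalized counts in lectin samples and from 6856 to 7615 in control samples, and THI80, for thiamin pyrophosphokinase, from 568 to 687 in lectin and 692 to 768 in control samples.

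YDR098C-B had 185 normalized counts in lectin 4, against 6.38 to 15.0 in the other lectin samples and 3.20 to 24.4 in control samples. YML045W was high in lectin 8, at 99.4 normalized counts, and in control 3, at 105, the same libraries as YOR142W-B, while its other samples lay between 30.9 and 56.3 in lectin and between 22.0 and 48.6 in control. YDR210C-D was even over the lectin samples, at 215 to 285, but in control samples it was 247 to 310 in control 2, 3 and 4 and 123 to 173 in control 6, 7 and 8. YDR210C-D was not called, but it was without control 2, at 0.41. Without YOR142W-B and YDR098C-B, the Ty1 sum was 29518 to 32647 in lectin samples and 19243 to 21597 in control samples, still without overlap, and its log2 fold change was 0.59.

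**Figure D4:**
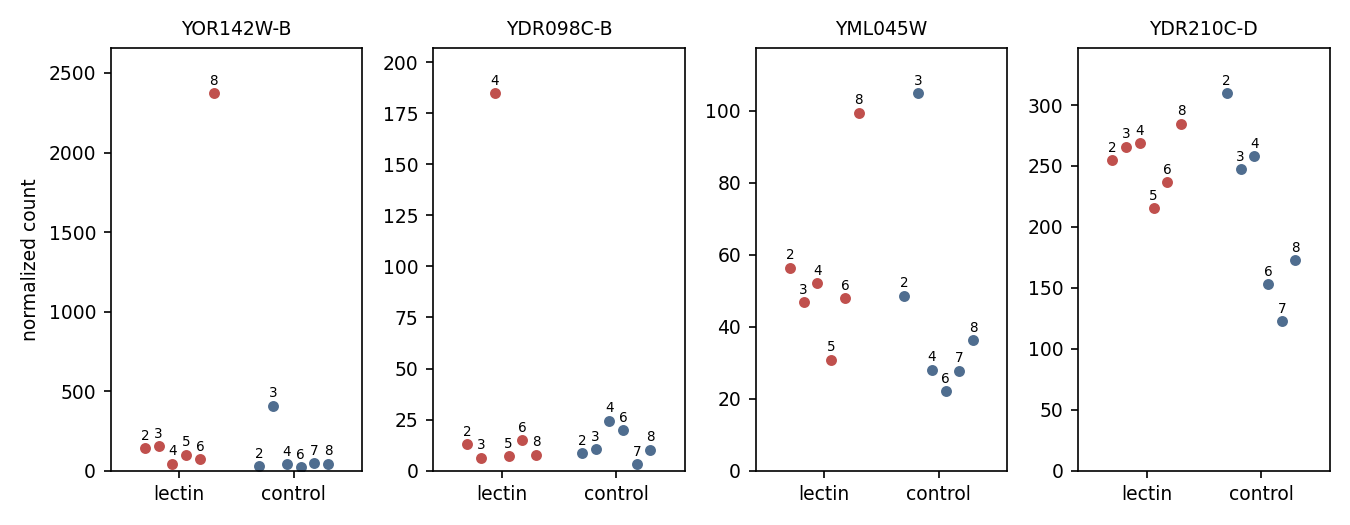
Normalized counts (vertical axes, from 0) of 4 Ty1 rows in which single samples stand apart, with lectin samples left and control samples right, each point marked with its sample number. YOR142W-B reaches 2374 in lectin 8 and 408 in control 3, YDR098C-B 185 in lectin 4, and YML045W 99.4 in lectin 8 and 105 in control 3.

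How far the rows of a family moved together from sample to sample was described after the group means were removed. Over the 12 samples, the correlation of a row with the rest of its family had a median of 0.36 over the 13 Ty1 rows with at least 1000 counts, from -0.15 in YOR142W-B to 0.79 in YML039W. It had a median of 0.45 over 6 Ty2 rows and was 0.68 for the Ty3 pair. All these points share their libraries, so the values are descriptions only.

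Ty2 counts were spread more evenly over the rows than those of Ty1. YDR261W-B held 31.9% of the Ty2 counts, with 953, 1012 and 1119 normalized counts in lectin samples and 913, 931 and 1033 in control samples. Its groups overlapped, its log2 fold change of 0.11 ± 0.053 was the smallest in the family. It was not called, except without lectin 5, at 0.13, or without control 8, at 0.14. YDR034C-D held 24.4%, with 694, 846 and 881 in lectin samples and 604, 693 and 743 in control samples. It was called higher, with a log2 fold change of 0.27 ± 0.066, although lectin 2 lay within the control range.

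The other called Ty2 rows were YDR210W-B, at 0.29 ± 0.11, and YBL100W-B, at 0.15 ± 0.062, and both overlapped. The largest Ty2 fold stood in a sparse row, YCL019W, with 9.56, 13.1 and 26.3 normalized counts in lectin samples and 4.23, 11.7 and 16.5 in control samples. Its log2 fold change of 0.42 ± 0.33 was not called, and without lectin 8 it was 0.19. YLR410W-B and YOR192C-B, each at 0.19 with an SE of 0.087 and 0.089, were not called.

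The table holds 1 further Ty2 gag-pol row outside the 45, YOR343W-B, which was added after its values were seen. It had 727, 838 and 964 normalized counts in lectin samples and 577, 615 and 693 in control samples, with no overlap and a log2 fold change of 0.43 ± 0.069. With it, the Ty2 sum had a log2 fold change of 0.23.

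Both Ty3 rows were called higher. YGR109W-B had 406, 454 and 514 normalized counts in lectin samples and 337, 388 and 456 in control samples, with overlap and a log2 fold change of 0.21 ± 0.084. This call was lost in edgeR and on leaving out any 1 of 7 libraries (lectin 2, 3, 4 and 6, and control 2, 3 and 4), with log2 fold changes of 0.17 to 0.22. YIL082W-A had 361, 450 and 487 in lectin samples and 315, 374 and 414 in control samples, also with overlap, and a log2 fold change of 0.25 ± 0.081. The Ty4 rows, YHL009W-B, YJL113W and YPL060C-A, were at 0 in all samples.

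Gag is encoded by the same RNA, and 40 of the 45 gag-pol frames contain a separate gag row. All 40 of these gag rows had 0 counts in every sample, so the table holds no reads assigned to gag within these elements. Whether reads in the shared stretch were left out of both rows or kept in gag-pol was not tested. The 2 gag rows that stand alone did have counts. YDR170W-A, 98.2% identical to the gag of YBL005W-B, had 566, 646 and 767 normalized counts in lectin samples and 427, 467 and 525 in control samples. It did not overlap between groups and its log2 fold change was 0.47 ± 0.084 (DESeq2 adjusted p = 4.0e-07). YLR256W-A, 99.8% identical to the gag of YPL257W-B, had 12.7 to 25.2 in lectin and 6.20 to 12.7 in control samples, with a log2 fold change of 0.95 ± 0.29 (DESeq2 adjusted p = 0.0056).

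The sequence of the Ty1 rows gave another way to group them. The 60 bases shown next are the stretch outside gag in which YBL005W-B, the fullest row, differs most from the consensus of the 24 Ty1 rows of equal frame length, at frame bases 3297 to 3356. They are shown because the Ty1 rows carry 2 versions of this stretch, and each version occurs in rows with many counts and in rows with few. Capitals mark bases that differ from the consensus, and all are read in the coding direction from RefSeq R64, at chrII:224626-224685 (plus strand), chrXIII:359272-359331 (minus), chrVII:819660-819719 (minus), chrVII:539353-539412 (plus) and chrXVI:60044-60103 (plus).
YBL005W-B: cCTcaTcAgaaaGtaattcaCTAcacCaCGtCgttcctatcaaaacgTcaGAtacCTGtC
YMR045C: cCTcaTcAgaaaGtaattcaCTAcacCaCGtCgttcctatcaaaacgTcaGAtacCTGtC
YGR161C-D: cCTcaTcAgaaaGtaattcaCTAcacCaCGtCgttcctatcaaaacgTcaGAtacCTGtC
YGR027W-B: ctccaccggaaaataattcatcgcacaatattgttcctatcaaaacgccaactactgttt
YPL257W-B: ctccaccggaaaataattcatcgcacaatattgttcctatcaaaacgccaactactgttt
The 3 upper sequences have 19 capitals each and the 2 lower ones none. YPL257W-B, identical to YGR027W-B here, had 43 counts over all libraries, where YGR027W-B had 11940.

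Of the 31 Ty1 rows, 9 were closer to the YBL005W-B version, 8 of them without a difference and YBR012W-B with 4, and 22 carried the consensus. The 9 rows held 86.3% of the Ty1 counts, with 25742 to 28353 normalized counts in lectin samples and 16872 to 18983 in control samples, a log2 ratio of the means of 0.58. The 22 consensus rows held 13.7%, with 3884 to 6229 in lectin samples and 2307 to 3082 in control samples, a log2 ratio of 0.75, in which YOR142W-B in lectin 8 is included. Neither set overlapped between the groups, so the difference was present in both sequence versions.

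The promoter side was described by motif matches, searched on both strands in the 300 bases before the frame. YAR009C and YLR035C-A of Ty1, YIL082W-A of Ty3 and YJL113W of Ty4 were left out of this search. The letters TGAAACA, the pheromone response element bound by Ste12, occurred before 8 of 29 Ty1 rows searched (27.6%). They occurred before none of 9 Ty2, 1 Ty3 and 2 Ty4 rows, and before 7.02% of 5910 other protein-coding genes. The 8 Ty1 rows were YBL005W-B, YMR045C, YBR012W-B, YGR161C-D, YNL284C-B, YOR142W-B, YML045W and YHR214C-B, and they held 86.7% of the Ty1 counts. Of these 8, 6 carried the YBL005W-B version of the 60 bases. Among tested rows, the median log2 fold change was 0.56 over 7 rows with the letters and 0.59 over 16 rows without them.

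The letters CATTCT or CATTCC, the core bound by Tec1, occurred before 20 of 29 Ty1 rows (69.0%) and 1 of 9 Ty2 rows. They also occurred before the 1 Ty3 row and both Ty4 rows searched, and before 25.1% of the other genes. The Ty1 rows with them held 93.1% of the Ty1 counts, and the median log2 fold change was 0.59 over 15 tested rows with them and 0.57 over 8 without. The Gcn4 letters TGACTCA or TGAGTCA were found before none of the Ty rows searched and before 2.66% of the other genes. A match in these windows is a description of letters, and overlap between motifs was not assessed. Bases beyond 300 and bases inside the frames, gag included, were not searched. A row counted as without a motif may therefore carry its letters elsewhere in the element.

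The sequence that belongs to 1 row alone was set beside the count of that row. The number of 100-base stretches of a frame outside gag that occur once in the reference genome ran from 0 to 795 among Ty1 rows and from 0 to 1134 among Ty2 rows. It was 1978 in YGR109W-B and 2526 in YIL082W-A of Ty3, and 96, 196 and 2028 in YHL009W-B, YPL060C-A and YJL113W of Ty4. Frames without a gag row were counted whole. Across the 9 Ty2 rows, the rank correlation of that number with the total count was 0.88, while across the 31 Ty1 rows it was 0.32. These points share their libraries and the same read assignment, and the values are descriptions. Of the 10 Ty1 rows without a unique stretch of 100 bases, YGR027W-B had the most counts, 11940. The fewest in such a row were 14. The picture depended on the length of the stretch. At 300 bases, YGR027W-B had 322 unique stretches, and the rank correlation was 0.48 across Ty1 rows and 0.90 across Ty2 rows. At that length 6 Ty1 rows had none, and the fullest of them was YML045W, with 605 counts.

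In position, the elements keep to the neighbourhood of tRNA genes, the known targets of Ty1 and Ty3 integration. Of the 45 rows, 35 (77.8%) had a tRNA gene within 1000 bases of their element, with a median distance of 193 bases, against 372 of 5911 other nuclear protein-coding genes (6.29%), with a median of 17057 bases. The 2 Ty3 elements had a median distance of 17 bases. This describes the reference genome and not the samples.

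Genes outside Ty whose sample-to-sample pattern was most like the Ty1 sum, after group means were removed, were GCN3 (r = 0.95), CMG1 (0.90), REV1 (0.88), SGD1 (0.88) and VID27 (0.86). The r values were the highest among 5817 features over 12 samples and are a description. GCN3 encodes a subunit of the translation factor eIF2B and REV1 a DNA polymerase of damage bypass. None of the 5 was called between the groups by DESeq2, with log2 fold changes of 0.024, 0.11, -0.010, 0.068 and 0.073 in that order.

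No host gene on the lists of factors that act on Ty elements reached the log2 fold change of the Ty1 sum. Their counts stand beside 15.4% of all features higher and 16.1% lower. Of 22 genes that activate Ty transcription, 8 rose, 1 fell and 13 did not pass the DESeq2 test, with a median log2 fold change of 0.079. GCR1, the activator of glycolytic genes that also acts on Ty2, had 3531, 3765 and 3897 normalized counts in lectin samples and 2560, 3036 and 3060 in control samples. It rose without overlap between groups, with a log2 fold change of 0.35 ± 0.051 (DESeq2 adjusted p = 2.5e-10). SNF5, a subunit of the SWI/SNF chromatin remodeller, rose by 0.31 ± 0.066 (DESeq2 adjusted p = 3.0e-05), and TEA1, which binds the Ty1 enhancer, by 0.27 ± 0.058 (DESeq2 adjusted p = 3.9e-05), both with overlap.

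TEC1, the partner of Ste12 on Ty1, had 724, 761 and 873 normalized counts in lectin samples and 600, 656 and 709 in control samples. It rose without overlap, with a log2 fold change of 0.24 ± 0.061 (DESeq2 adjusted p = 0.00046). STE12 itself, at 0.021 ± 0.050 (DESeq2 adjusted p = 0.79), and SPT3, a SAGA subunit needed to start Ty1 transcription, at 0.054 ± 0.057 (DESeq2 adjusted p = 0.50), did not pass. GCN5, the SAGA histone acetyltransferase, was the activator that fell, with a log2 fold change of -0.16 ± 0.050 (DESeq2 adjusted p = 0.0054) and no overlap.

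Of 30 genes that restrict Ty elements or shape their chromatin, 6 rose, 2 fell and 22 did not pass, with a median log2 fold change of 0.019. The total of 8 became 5 without control 2 or without control 7. ASF1, a histone chaperone, rose by 0.28 ± 0.049 (DESeq2 adjusted p = 2.4e-07) and SGS1, a RecQ helicase, by 0.22 ± 0.048 (DESeq2 adjusted p = 4.0e-05), both without overlap. SPT10, a regulator of histone genes, rose by 0.17 ± 0.071 (DESeq2 adjusted p = 0.048). RAD3, a helicase of TFIIH, and HIR2, of the HIR histone repressor complex, fell, each with a log2 fold change of -0.14 (DESeq2 adjusted p = 0.0087 for RAD3 and 0.030 for HIR2). FUS3, the mating kinase that limits Ty1 transposition, at -0.14 ± 0.065 (DESeq2 adjusted p = 0.079), and RTT106, a histone chaperone, at 0.048 ± 0.053 (DESeq2 adjusted p = 0.53), did not pass.

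Among 13 genes of Ty RNA handling and reverse transcription, 2 rose, 1 fell and 10 did not pass. The total of 3 became 1 when lectin 4, lectin 6, control 2 or control 8 was left out. BUD22, a ribosome biogenesis factor needed for efficient Ty1 transposition, rose by 0.30 ± 0.056 (DESeq2 adjusted p = 7.5e-07) without overlap, and SET3, of a histone deacetylase complex, by 0.17 ± 0.067 (DESeq2 adjusted p = 0.039). LSM1, a decapping activator, fell, with a log2 fold change of -0.28 ± 0.10 (DESeq2 adjusted p = 0.022). XRN1, the 5′ to 3′ exonuclease, at 0.087 ± 0.054 (DESeq2 adjusted p = 0.22), did not pass.

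Among 21 genes of the RNA polymerase III machinery that Ty integration complexes meet at their target sites, 2 rose, 1 fell and 18 did not pass. RET1, the second-largest polymerase III subunit, rose by 0.36 ± 0.087 (DESeq2 adjusted p = 0.00036) with overlap, and BDP1, of the initiation factor TFIIIB, by 0.19 ± 0.046 (DESeq2 adjusted p = 0.00052) without it. TFC4, of the assembly factor TFIIIC, fell, with a log2 fold change of -0.14 ± 0.050 (DESeq2 adjusted p = 0.017).

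**Figure D5:**
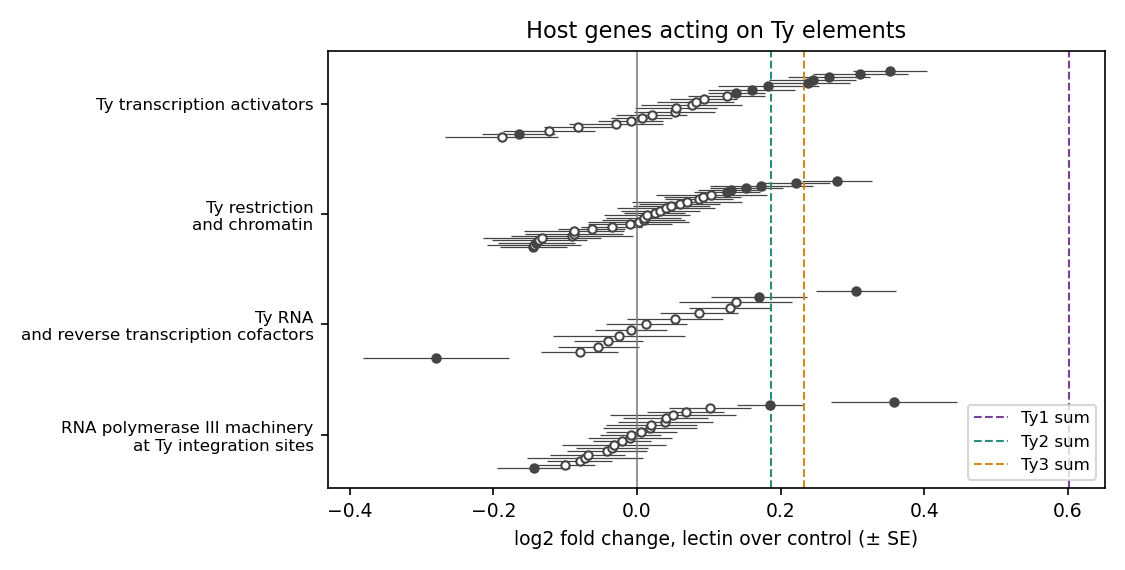
Log2 fold change, lectin over control, with its SE (horizontal axis) for every tested gene of the 4 host lists, ordered by size within each list. Filled points had a DESeq2 adjusted p under 0.05, and the dashed lines are the Ty1, Ty2 and Ty3 sums at 0.60, 0.19 and 0.23. No host gene reached the Ty1 line, and the largest was RET1 at 0.36.

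Ty1 transcription depends on mating type, among other factors, and the labels give no mating type, so its marker genes were read in the same table. All 7 a-specific and all 5 alpha-specific genes had counts in both groups. The a-specific genes summed to 98.9 to 105 CPM in lectin samples and 116 to 127 CPM in control samples, and 5 of the 7 fell, beside 16.1% of all features lower and 15.4% higher. MFA2, an a-factor gene, had 97.8 to 145 normalized counts in lectin samples and 206 to 256 in control samples, with a log2 fold change of -1.03 ± 0.11 (DESeq2 adjusted p = 5.7e-20). The alpha-specific genes summed to 146 to 153 CPM in lectin samples and 156 to 165 CPM in control samples, with 2 of 5 higher and 1 lower. MF(ALPHA)1, an alpha-factor gene, was the lower one, at 573 to 718 normalized counts in lectin samples and 1020 to 1107 in control samples, with a log2 fold change of -0.74 ± 0.054 (DESeq2 adjusted p = 2.2e-40). The other 4 alpha-specific genes had higher means in lectin samples. SAG1, for alpha-agglutinin, rose by 0.16 ± 0.048 without overlap (DESeq2 adjusted p = 0.0041) and AFB1 by 0.32 ± 0.080 with it (DESeq2 adjusted p = 0.00054), while STE3, at 0.055 ± 0.081, and MF(ALPHA)2, at 0.044 ± 0.10, did not pass. The 9 haploid-specific genes summed to 211 to 224 CPM in lectin samples and 212 to 224 CPM in control samples, with FAR1 higher and GPA1 lower. The part of these markers in the Ty1 difference was not tested.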

How the data were processed

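Counts of reads per gene, not normalized, were deposited for 12 samples and made by the authors from paired-end reads of poly-A selected RNA, per the labels' protocols. The submitters' processing notes name fastp, HISAT2, featureCounts and build R64; the strand setting and the handling of reads that fit several places or several features are not given in the sources used here. Reads dropped or split among near-identical copies would change the counts of single Ty rows. Dropped reads would be missing from the family sums as well.

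A feature entered the test when 6 or more samples each had a count of 10 or higher, which 6237 of 7192 did. The test was the DESeq2 Wald test (1.42.0, R 4.3.3), named in the series' design text, on lectin against control in all 12 samples, scaled by median-of-ratios size factors, with p-values adjusted over the whole table by Benjamini-Hochberg. Log2 fold changes are unshrunken, with their SE. Family sums replaced their member rows in a second fit of 6207 features. edgeR (4.0.16, quasi-likelihood) and limma-voom (3.58.1), other scalings, no filter, a replicate block and leaving out each sample were alternatives. Identity was computed with blastn (2.17.0) on RefSeq R64.

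The Ty rows, the host and marker lists and the tests were chosen with earlier results of these data known. Rows named with full values were, by rule, the 2 fullest rows and those with the largest and smallest log2 fold change of the larger families, all rows of the smaller ones, up to 3 called genes per direction in each host list, and TEC1, STE12, SPT3, FUS3, RTT106 and XRN1. Other rows and genes, among them the mating markers shown, were chosen after their values were seen. Totals of 17303313 to 21354011 counts set a floor of 3 counts, for counting error only, since copies made by PCR are not independent molecules.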

Additional observations from a re-analysis of the deposited data

Results flagged for a closer look

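Each tested Ty row and each family sum was taken in each group, as 72 groups of 6 normalized counts. Chance exceeds the critical value of Dixon's test in about 3.6 of 72 groups if values are normally distributed. That condition was not tested for these counts, some of them sparse. In 11 of the 72 groups, the highest or lowest sample stood off from the other 5 by a gap past the critical value. In the lectin group these were YOR142W-B at 2374 in lectin 8 (others 44.6 to 155), YML045W at 99.4 in lectin 8 (others 30.9 to 56.3), YDR098C-B at 185 in lectin 4 (others 6.38 to 15.0), YGR161C-D at 2110 in lectin 3 (others 1573 to 1757), YDR034C-D at 694 in lectin 2 (others 816 to 881) and YLR157C-B at 2.82 in lectin 6 (others 9.70 to 12.7). In the control group they were YOR142W-B at 408 in control 3 (others 23.1 to 47.0), YML045W at 105 in control 3 (others 22.0 to 48.6), YJR027W at 93.2 in control 4 (others 45.1 to 62.4), YJR029W at 213 in control 4 (others 77.2 to 126) and the Ty2 sum at 3063 in control 8 (others 2806 to 2889). YOR142W-B and YML045W stood off in the same libraries, and the neighbouring rows YJR027W and YJR029W, tandem Ty1 elements on chromosome X, in another.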

How the results depend on the processing

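The Ty1, Ty2 and Ty3 sums, given as a description, had log2 fold changes of 0.58 to 0.71, 0.16 to 0.23 and 0.19 to 0.27 over 24 alternatives each, 3 of them chosen after seeing the data. Adding gag rows, all at 0, or leaving out rows of another family could not change them. The number of Ty rows called higher was 14 to 21 on leaving out 1 sample (14 without lectin 2, 21 without lectin 5) and 15 to 17 otherwise, and none was called lower. Of 285 values for 15 named rows, 270 were classed as unchanged, 9 lost a call and 3 gained one. Another 2, both of YOR142W-B, kept their direction but moved in size, to 0.057 without lectin 8 and 3.73 without control 3. YDR365W-B turned to -0.082 without lectin 6 (DESeq2 adjusted p = 0.90), and ran from there to 0.41 on leaving out 1 sample. Calls of restriction genes, 8 in all, were 5 to 8 on leaving out 1 sample, and those of RNA cofactors, 3 in all, 1 to 4.

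Lectin and control samples with an equal number (2, 3, 4, 6 or 8) showed little joint deviation. Their correlations were -0.12, 0.19, -0.088, -0.070 and -0.044 in that order. Each value rests on a single pair, so it cannot decide whether samples of equal number had a common culture or batch. With the number as a replicate block on those 10 samples, the sums had log2 fold changes of 0.61, 0.19 and 0.26 for Ty1, Ty2 and Ty3, 16 Ty rows were called higher (17 on the same samples without the block), and YIL082W-A lost its call. Restriction genes called were 3 with the block and 5 on the same 10 samples without it. The cause of these changes was not tested.

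Counts of single rows rest on an unstated assignment of reads among near-identical copies, and sparse rows are limited by counting error. Family sums would lack any shared reads that were dropped. The Ty4 rows were at 0, and levels under 0.140 to 0.173 CPM could not be detected.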
